A study of Homo sapiens with 14 samples.

Results

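The cell cycle cyclins of types A, B, D and E, with cyclin F, were followed in A549 and H1792 cells, established human lung adenocarcinoma lines, after exposure to AMG900, an inhibitor of all aurora kinases. They were taken by gene name, with no threshold on a measured value, and comprise CCND1, CCND2, CCND3, CCNE1, CCNE2, CCNA2, CCNB1, CCNB2 and CCNF. All 9 were among the 26732 genes listed for both lines. RNA was sequenced from 4 DMSO and 4 AMG900 libraries of A549, grown in DMEM, and from 3 DMSO and 3 AMG900 libraries of H1792, grown in RPMI medium. The cells received 0.1 µM AMG900 or its solvent DMSO and were collected after 48 h. Every group carried the same serum and antibiotics, and each line stands for 1 tumour. The labels do not say how the replicate dishes of a group were kept apart, so p-values measure the spread between these libraries, which may be technical. In bulk samples of this kind, fewer cells in a given phase and less RNA per cell cannot be told apart.

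Cyclins are the regulatory subunits that switch cyclin-dependent kinases (CDKs) on. D-type cyclins couple growth signals to CDK4 and CDK6 in G1, E-type cyclins drive entry into S phase with CDK2, cyclin A2 serves CDK2 and CDK1 through S and G2, and B-type cyclins carry CDK1 into mitosis. Cyclin F binds no CDK and is instead the substrate receptor of an SCF ubiquitin ligase that acts mainly in G2. The E, A and B types and cyclin F oscillate, since E2F factors, the B-MYB and FOXM1 complexes and NF-Y control their transcription and the SCF and APC/C ligases destroy the proteins.

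The cyclin genes that fell most in A549 are shown here by the 250 bases before their transcription starts. NF-Y is known to read CCAAT, and the DREAM, B-MYB and FOXM1 complexes are known to read the cell cycle genes homology region (CHR). CCNE1 is added as a neighbour that passed the threshold in neither line in the main fits. Its call depended on the setting, as given below. It passed as lower in A549 without DMSO replicate 1 and in both lines with a correction for GC content. Sequences are from RefSeq on GRCh38.p14, written 5′ to 3′ on the strand of the gene. Capitals mark 3 kinds of match on either strand. The first is CCAAT. The second is the CHR, searched as TTTGAA or in its palindromic form TTTAAA. No other spelling was searched, so a CHR written otherwise is not marked. The third is the E2F core, searched in 4 spellings, with TTCCCGC as the first, TTGGCGC as the second spelling, TTCGCGC as the third spelling and TTGCCGC as the last.
CCNA2, chr4:121823884-121824133, minus strand: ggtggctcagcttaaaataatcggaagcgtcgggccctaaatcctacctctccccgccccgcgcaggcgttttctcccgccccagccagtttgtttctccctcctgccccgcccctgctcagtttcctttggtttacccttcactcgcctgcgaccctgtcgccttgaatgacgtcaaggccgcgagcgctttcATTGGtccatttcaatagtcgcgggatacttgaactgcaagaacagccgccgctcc
CCNB1, chr5:69166900-69167149, plus strand: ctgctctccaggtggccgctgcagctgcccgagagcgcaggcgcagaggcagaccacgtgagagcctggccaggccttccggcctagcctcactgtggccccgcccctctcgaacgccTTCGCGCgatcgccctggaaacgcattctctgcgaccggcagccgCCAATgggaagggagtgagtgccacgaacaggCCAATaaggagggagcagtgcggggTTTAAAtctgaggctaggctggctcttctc
CCNB2, chr15:59104896-59105145, plus strand: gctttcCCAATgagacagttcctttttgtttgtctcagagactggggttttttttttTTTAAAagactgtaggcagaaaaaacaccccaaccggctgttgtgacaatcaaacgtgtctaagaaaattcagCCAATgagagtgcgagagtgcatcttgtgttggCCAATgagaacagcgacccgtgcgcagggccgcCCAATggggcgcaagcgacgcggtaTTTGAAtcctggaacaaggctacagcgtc
CCNF, chr16:2429197-2429446, plus strand: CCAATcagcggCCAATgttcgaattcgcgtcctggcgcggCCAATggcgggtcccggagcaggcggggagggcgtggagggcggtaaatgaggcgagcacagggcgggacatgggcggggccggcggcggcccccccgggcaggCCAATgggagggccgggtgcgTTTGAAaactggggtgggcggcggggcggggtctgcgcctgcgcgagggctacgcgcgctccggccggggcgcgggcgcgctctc
CCNE1, chr19:29811741-29811990, plus strand: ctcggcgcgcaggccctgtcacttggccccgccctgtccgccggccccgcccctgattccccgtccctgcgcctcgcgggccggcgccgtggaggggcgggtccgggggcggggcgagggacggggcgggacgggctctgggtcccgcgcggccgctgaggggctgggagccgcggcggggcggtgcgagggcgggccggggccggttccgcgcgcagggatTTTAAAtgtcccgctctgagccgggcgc

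CCNB1, CCNB2 and CCNF each held at least 2 CCAAT boxes and a CHR, a combination found in 2.12% of the 35116 promoters of the table. CCNB1 carried CCAAT at -87 and -55 and TTTAAA at -30, counted from the start to the first base of the match. CCNB2 carried CCAAT at -244, -120, -87 and -54 and TTTGAA at -29, with a further TTTAAA at -193. In CCNF, 4 CCAAT boxes preceded a TTTGAA at -85. CCNA2 had 1 CCAAT, on the opposite strand at -56, and neither TTTGAA nor TTTAAA. This does not show that CCNA2 lacks a CHR, since other spellings were not searched. CCNE1 had TTTAAA at -28, no CCAAT and none of the 4 E2F spellings. Only CCNB1 held an E2F match among these 5, at -132. An absent match does not show that a gene lacks an E2F site, since no spelling beyond these 4 was searched. Among all promoters, 21.9% held a CHR match, 32% a CCAAT, 9.53% at least 2 CCAAT and 10.9% an E2F match. TTTAAA reads the same on both strands and overlaps in letters with AT-rich start elements, while TATAAA itself, found in 10.7% of promoters, was in none of the 5. CCND3 had 3 entries, of which 2 held 1 CCAAT each. A match describes letters and not a bound site. CCND1, CCND2 and CCNE2 had no entry.

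**Figure D1:**
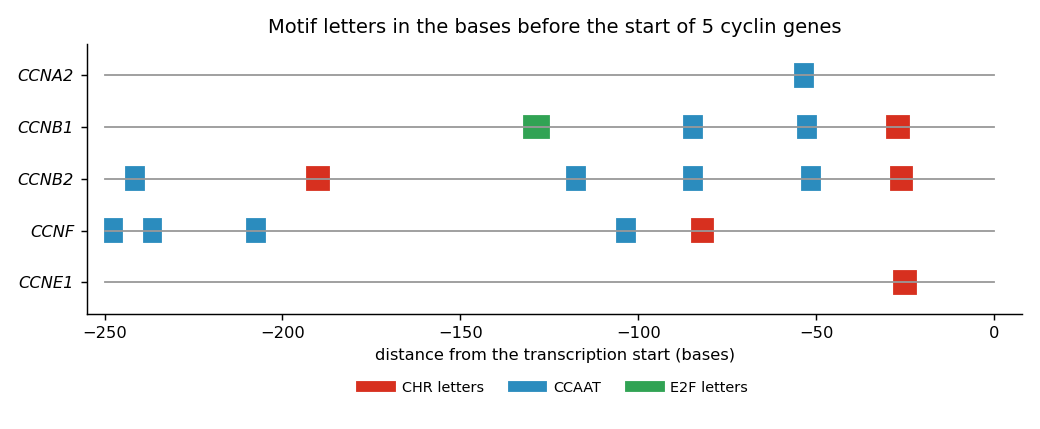
Position of the motif letters in the 250 bases before the start of 5 cyclin genes, with the distance from the transcription start on the x axis (bases) and 1 line per gene. Coloured boxes stand for CHR, CCAAT and E2F matches on either strand. CCNB2 and CCNF have 4 CCAAT boxes each, CCNB1 has 2, CCNA2 has 1 and CCNE1 has none.

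Counts totalled 4254644 to 16381683 per A549 DMSO library, 10932815 to 18962883 per A549 AMG900 library, 42810734 to 65694519 per H1792 DMSO library and 51346932 to 79984064 per H1792 AMG900 library. A549 DMSO replicate 1 was the smallest library and stood apart, at 50.6 on the second principal component of A549 where the other DMSO libraries lay between -20.7 and -18.7. Cyclin calls that change when this or another library is left out are stated beside the main call. Over the genes tested, which are no replicates, the log2 fold change increased with transcript GC content (Spearman's rho was 0.488 for A549 and 0.47 for H1792), so values with a GC correction are given where they alter a call. Transcript GC was 36.9% for CCNE2, 41.9% for CCNA2 and CCNB1, 44.4% for CCNB2, 56.2% for CCND3 and 57.3% for CCNF. Keratin transcripts of epithelial cells were abundant, with a summed level of KRT8, KRT18, KRT19 and EPCAM of 4440 to 5640 CPM (counts relative to library size) with DMSO and 6070 to 6840 CPM with AMG900 in A549, and 658 to 818 CPM and 817 to 829 CPM in H1792. In A549, EPCAM had at most 10 counts in a library. Of the blood cell markers, PTPRC had at most 4 counts and CD3E at most 1 count in any library, while CD14 averaged 4.27 CPM with DMSO and 10.2 CPM with AMG900 in A549 and 1.31 and 2.15 CPM in H1792. CD14 passed the threshold in A549 (log2 fold change 1.27, edgeR FDR = 0.00105) and not in H1792 (0.71, edgeR FDR = 0.0121). The summed level of the endothelial markers PECAM1, CDH5 and VWF was 0.224 to 5.92 CPM with DMSO and 0.323 to 1.24 CPM with AMG900 in A549, and 3.91 to 16.1 and 8.09 to 9.15 CPM in H1792. In H1792, PECAM1 (4.46 and 7.51 CPM on average, edgeR FDR = 0.00144) and CDH5 (0.0799 and 0.39 CPM, edgeR FDR = 0.00244) were higher with AMG900. The 3 keratins rose with AMG900 in A549 and KRT19 alone passed the threshold in H1792. The part of these markers in the cyclin values was not tested.

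AMG900 lowered the cyclins of S, G2 and M phase in A549 and left most of the family below the threshold of change in H1792. In A549, CCNA2, CCNB1, CCNB2 and CCNF were 3.94-fold to 24.7-fold lower. In H1792, CCNA2 was 2.5-fold lower and CCNF 1.25-fold lower, and CCNB1 and CCNB2 had fitted folds of 0.995 and 1.02. Tested within each line with the edgeR quasi-likelihood test at a false discovery rate (FDR) of 0.01 over all genes, 5 of the 7 cyclins with enough counts in A549 were downregulated and 0 upregulated, where 17.8% of the 13174 genes tested were downregulated and 17.3% upregulated. In H1792, 2 of 8 were downregulated and 0 upregulated, against 19.2% and 16.7% of 15017 genes. The tested cyclins had a median log2 fold change of -1.98 in A549 and of -0.14 in H1792, beside -0.01 and 0.01 for all genes tested. CCND2 was tested in neither line, and CCNE2 was not tested in A549, because of low counts.

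**Figure D2:**
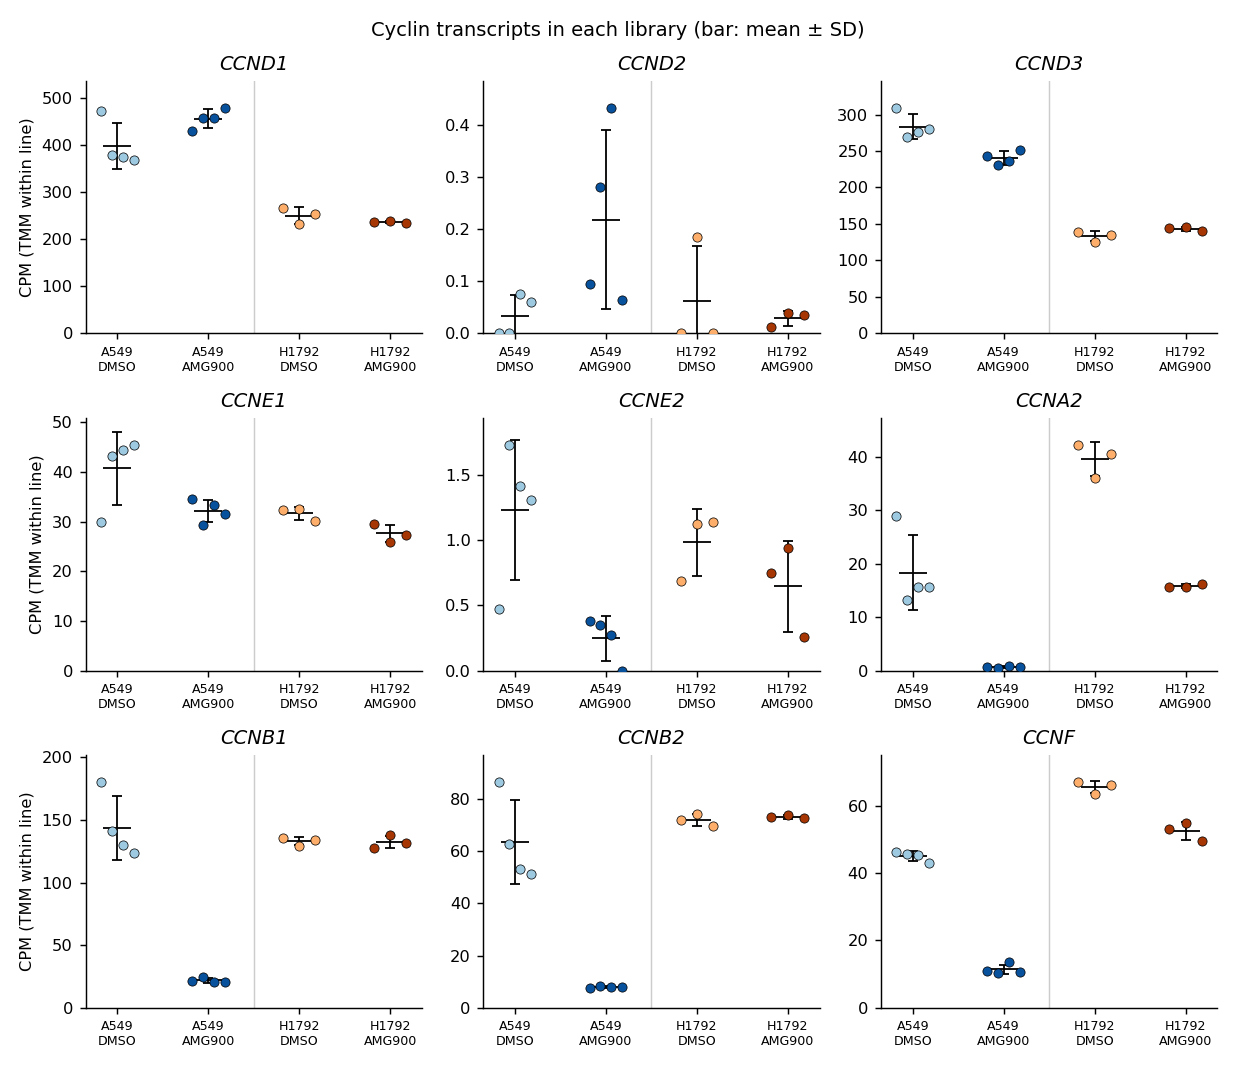
Level of each cyclin in every library in CPM scaled by TMM within each line (y axis, linear from 0), by group on the x axis. Points are libraries, horizontal bars the group mean and vertical bars the SD. In A549 the AMG900 libraries of CCNA2, CCNB1, CCNB2 and CCNF lie far under all DMSO libraries, while in H1792 CCNB1 and CCNB2 overlap between the groups.

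CCNA2 (GRCh37 chr4:122737599-122745038, minus strand) encodes cyclin A2, the partner of CDK2 in S phase and of CDK1 in G2. In A549 it measured 28.9, 13.3, 15.6 and 15.7 CPM in the DMSO libraries and 0.756, 0.562, 0.863 and 0.646 CPM in the AMG900 libraries. All AMG900 libraries lay under all DMSO libraries, and DMSO replicate 1 was well above the other 3. The log2 fold change was -4.63 ± 0.29 (SE, edgeR FDR = 4.05e-09), the sixth lowest of the 13174 genes tested. Without DMSO replicate 1 it was -4.37. The AMG900 libraries held 8 to 16 CCNA2 counts each, so counting error weighs on the low end of this fold. The exons of CCNA2 share 9.24% of their bases with EXOSC9 on the opposite strand.

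In H1792, CCNA2 measured 42.2, 36.1 and 40.7 CPM with DMSO and 15.8, 15.7 and 16.2 CPM with AMG900. The groups did not overlap. The log2 fold change was -1.32 ± 0.08 (SE, edgeR FDR = 8.15e-07), and 3.16% of the genes tested in H1792 fell by more.

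CCNB1 (chr5:68462962-68474072, plus strand) encodes the main mitotic cyclin, which with CDK1 triggers entry into mitosis. Its A549 DMSO libraries measured 180, 141.2, 129.6 and 123.6 CPM. With AMG900 the 4 libraries measured 21.7, 24.6, 20.9 and 20.2 CPM. The treated libraries formed a narrow band far under the untreated ones, with a log2 fold change of -2.71 ± 0.12 (SE, edgeR FDR = 5.82e-11). In H1792 the DMSO libraries measured 135.7, 129.2 and 133.9 CPM and the AMG900 libraries 127.9, 137.8 and 131.3 CPM. These groups overlapped, and the difference was smaller than the spread between replicates (log2 fold change -0.01 ± 0.05 SE, edgeR FDR = 0.925). With the GC correction the H1792 value turned positive and passed the threshold (0.23, edgeR FDR = 0.00754).

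CCNB2 (chr15:59397325-59417244, plus strand), the second B-type cyclin of dividing somatic cells, followed CCNB1 closely. It measured 86.5, 63.0, 53.2 and 51.5 CPM in A549 with DMSO and 7.56, 8.49, 8.15 and 7.82 CPM with AMG900. The AMG900 libraries differed from each other by less than 1 CPM, and none came near a DMSO library. The log2 fold change was -2.96 ± 0.16 (SE, edgeR FDR = 6.96e-10). In H1792, CCNB2 measured 72.0, 74.5 and 69.8 CPM with DMSO and 73.2, 74.1 and 72.6 CPM with AMG900, and the groups overlapped (log2 fold change 0.02 ± 0.05 SE, edgeR FDR = 0.735). The sign of this small H1792 difference depended on the scaling, at -0.04 with total counts.

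CCNF (chr16:2479395-2508855, plus strand), the ubiquitin ligase subunit, was the cyclin with the smallest spread among the A549 DMSO libraries relative to its level. Those libraries measured 46.3, 45.5, 45.2 and 43.0 CPM, and the AMG900 libraries 10.9, 10.4, 13.5 and 10.7 CPM. No AMG900 library reached a DMSO library, and the log2 fold change was -1.98 ± 0.11 (SE, edgeR FDR = 1.68e-09). In H1792, CCNF measured 66.9, 63.6 and 66.2 CPM with DMSO and 52.9, 54.9 and 49.5 CPM with AMG900. The decrease was small but every treated library lay under every untreated one (log2 fold change -0.32 ± 0.06 SE, edgeR FDR = 0.00115). With the GC correction the CCNF values were -2.28 in A549 and -0.59 in H1792, and the call was kept in both lines. The exons of CCNF share 8.35% and 3.47% of their bases with noncoding genes on the opposite strand, which were not listed for these lines.

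The E-type cyclins showed smaller differences or few counts. CCNE1 (chr19:30302898-30315219, plus strand), which activates CDK2 at the G1/S boundary, measured 29.8, 43.2, 44.3 and 45.4 CPM in A549 with DMSO and 34.5, 29.3, 33.3 and 31.5 CPM with AMG900. The groups overlapped through DMSO replicate 1 alone, which was the lowest of its group. The log2 fold change of -0.36 ± 0.12 (SE) did not pass the threshold (edgeR FDR = 0.0226), whereas it was -0.47 without DMSO replicate 1 (edgeR FDR = 8.5e-05) and -0.46 with the GC correction (edgeR FDR = 0.00199). In H1792, CCNE1 measured 32.3, 32.5 and 30.1 CPM with DMSO and 29.5, 25.96 and 27.3 CPM with AMG900. These groups did not overlap, yet the log2 fold change of -0.20 ± 0.07 (SE) missed the threshold (edgeR FDR = 0.0429), and it passed with the GC correction (-0.33, edgeR FDR = 0.0014).

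CCNE2, the second E-type cyclin, was close to the limit of detection. Its A549 DMSO libraries held 2, 19, 19 and 22 counts and its AMG900 libraries 4, 5, 5 and 0 counts. Scaled to library size, every AMG900 library lay under every DMSO library, with means of 1.23 ± 0.54 and 0.25 ± 0.17 CPM (SD, n = 4 each; two-sided exact permutation p = 0.0286, the smallest that 4 against 4 allows). Without the filter on low counts the log2 fold change was -2.38 (edgeR FDR = 0.00221), and it was -2.399 with DESeq2 (FDR = 0.00177). In 5 fits that each left out 1 library CCNE2 was tested, at -2.63 to -1.98 (edgeR FDR = 0.000418 to 0.0112), and it passed in 4. In H1792 the DMSO libraries held 45, 55 and 50 counts and the AMG900 libraries 58, 47 and 15 counts. AMG900 replicate 3 was the low one, the groups overlapped in CPM, and the difference did not pass the threshold (log2 fold change -0.59 ± 0.41 SE, edgeR FDR = 0.244). In the annotation 37% of the exonic bases of CCNE2 overlap INTS8 on the opposite strand, and the sources used here do not say whether counting used strand, so reads of this pair cannot be told apart.

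CCND1 and CCND3 were the most abundant G1 cyclins, and their fold changes were small. CCND1 (chr11:69455924-69469242, plus strand), the D-type cyclin that growth factor signalling induces, measured 472.3, 378.9, 374.5 and 368 CPM in A549 with DMSO and 430.1, 458.4, 457.4 and 479.1 CPM with AMG900. DMSO replicate 1 lay among the AMG900 libraries and the other 3 DMSO libraries lay under all of them. The log2 fold change of 0.20 ± 0.08 (SE) did not pass the threshold (edgeR FDR = 0.0519), and without DMSO replicate 1 it was 0.29 and did (edgeR FDR = 7.16e-05). In H1792, CCND1 measured 266.1, 232.1 and 253.6 CPM with DMSO and 237.8, 238.9 and 235.1 CPM with AMG900, with overlapping groups (log2 fold change -0.08 ± 0.06 SE, edgeR FDR = 0.279). The exons of CCND1 share 10.4% of their bases with LTO1 (listed as ORAOV1) on the opposite strand.

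CCND3 (chr6:41902672-42018095, minus strand), the D-type cyclin best known from blood cells but widely expressed, measured 308.8, 269.3, 275.6 and 279.8 CPM in A549 with DMSO and 243.3, 230.9, 236.1 and 251.7 CPM with AMG900. The groups did not overlap, and the log2 fold change of -0.23 ± 0.07 (SE) passed the threshold (edgeR FDR = 0.00861). This call was lost in 7 of the 8 fits that each left out 1 library, with an edgeR FDR of up to 0.0353, while with the GC correction the value was -0.51 (edgeR FDR = 7.17e-06). In H1792 it measured 139.5, 125.6 and 135.3 CPM with DMSO and 144.5, 145.4 and 140.5 CPM with AMG900. Here every AMG900 library lay above every DMSO library, but the log2 fold change of 0.10 ± 0.06 (SE) did not pass (edgeR FDR = 0.144) and its sign turned with the GC correction (-0.14).

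CCND2 (chr12:4378937-4414519, plus strand) was barely detected in either line. It had 0, 0, 1 and 1 counts in A549 with DMSO and 1, 4, 8 and 1 with AMG900 (two-sided exact permutation p = 0.0571 on CPM, n = 4 each). In H1792 it had 0, 9 and 0 counts with DMSO and 1, 2 and 2 with AMG900 (two-sided exact permutation p = 1, where 3 against 3 cannot go below 0.1). At these counts no difference was detectable, and part of the exons lies opposite CCND2-AS1.

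Across the tested cyclins the groups did not overlap for 5 of 7 in A549, all lower with AMG900 and against 22% of all genes lower without overlap, and for 4 of 8 in H1792, of which CCND3 was higher, against 29.6% of genes lower and 30.1% higher.

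**Figure D3:**
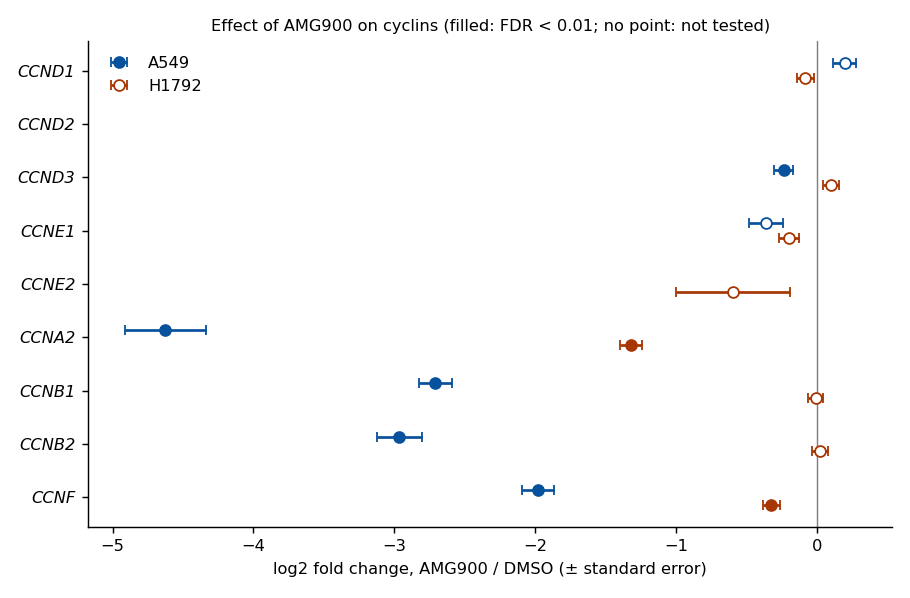
Log2 fold change of AMG900 against DMSO (x axis) for each cyclin (y axis) in A549 (blue) and H1792 (orange) from the edgeR fits. Bars are standard errors, filled points passed an FDR of 0.01, and a gene without a point was not tested. CCNA2, CCNB1, CCNB2 and CCNF lie between -4.63 and -1.98 in A549 and between -1.32 and 0.02 in H1792.

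The size of the AMG900 effect differed between the lines for the 4 cyclins of S, G2 and M phase. Each line came with its own medium, count table and sequencing depth, so the parts of these in the difference cannot be told apart. In a joint fit over all 14 libraries, the interaction of line and treatment (H1792 effect minus A549 effect) was 3.21 ± 0.31 on the log2 scale for CCNA2 (SE, edgeR FDR = 1.15e-07). For CCNB2 it was 2.90 ± 0.17 (SE, edgeR FDR = 6.08e-11), for CCNB1 2.62 ± 0.14 (SE, edgeR FDR = 6.71e-12) and for CCNF 1.58 ± 0.13 (SE, edgeR FDR = 5.04e-09). These 4 of the 8 cyclins tested were the ones past the threshold, CCNA2 and CCNF with a weaker decrease in H1792 and CCNB1 and CCNB2 with no change past the threshold there, where 5.48% of the 14769 genes tested had a higher and 9.34% a lower effect in H1792. With the size factors of DESeq2 in place of TMM, the genes with a higher and a lower effect numbered 1016 and 1037, compared with 810 and 1380 in the joint fit, and the same 4 cyclins passed under each scaling. CCND3 joined them with total counts (0.35, edgeR FDR = 0.00304), with the GC correction (0.30, edgeR FDR = 0.00473) and with DESeq2 (0.34, FDR = 0.00161).

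The remaining cyclins were less clear between the lines. CCNE2 had an interaction of 1.78 ± 0.76 (SE, edgeR FDR = 0.0973), CCND3 of 0.26 ± 0.09 (SE, edgeR FDR = 0.0412) and CCNE1 of 0.10 ± 0.16 (SE, edgeR FDR = 0.703). CCND1 was the only one with a negative interaction, -0.36 ± 0.11 (SE, edgeR FDR = 0.0205), which passed the threshold without A549 DMSO replicate 1 (-0.44, edgeR FDR = 0.000278).

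Some cyclins also differed between untreated cells of the lines, though no more often than genes in general. In the same joint fit, H1792 DMSO libraries had more CCNA2 (log2 difference 1.29 ± 0.16 SE, edgeR FDR = 4.37e-07) and more CCNF (0.64 ± 0.08 SE, edgeR FDR = 7.12e-07) than A549 DMSO libraries. They had less CCND3 (-0.98 ± 0.07 SE, edgeR FDR = 2.09e-11) and less CCND1 (-0.56 ± 0.08 SE, edgeR FDR = 1.45e-06). The other tested cyclins did not pass, with CCNB1 at 0.00, CCNB2 at 0.32 (edgeR FDR = 0.0165) and CCNE1 at -0.29 (edgeR FDR = 0.0232), and CCNB2 was 0.47 without A549 DMSO replicate 1 (edgeR FDR = 6.94e-06). CCNE1 passed in 1 of the 14 fits that each left out 1 library (lowest edgeR FDR = 0.000183). With all libraries, 2 of 8 were thus higher and 2 lower in H1792, where 34.2% of all genes were higher and 32% lower. The DMSO libraries of the lines did not overlap for these 4, where 36.3% of genes were higher and 32% lower without overlap. Line, medium, count table and sequencing depth cannot be told apart in this contrast.

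Compared per kilobase of the longest transcript, on CPM scaled jointly over both lines, A549 DMSO cells were led by the D types, with 113.1 ± 6.42 CPM per kb for CCND3 and 89.8 ± 10.2 for CCND1 (SD, n = 4). CCNB1 followed at 67.5 ± 11.1, CCNB2 at 24.2 ± 5.84 and CCNE1 at 19.9 ± 3.74, the last pair with overlapping ranges. CCNF at 10.2 ± 0.21 and CCNA2 at 6.38 ± 2.403 CPM per kb overlapped only through DMSO replicate 1, the other 3 libraries of CCNA2 lying between 4.57 and 5.53, and CCNE2 and CCND2 were under 1. The place of CCND3 rests on its longest transcript of 2394 bases. Over the union of its exons, 5761 bases, CCND3 came after CCND1 and CCNB1 in A549 with DMSO. After AMG900 the A549 order became CCND1 and CCND3, with overlapping ranges, then CCNE1 at 16.6 ± 1.05, ahead of CCNB1 at 10.9 ± 0.93 and CCNB2 at 3.23 ± 0.17 CPM per kb. Cyclins of G1 and its exit held all of the first 3 places in treated A549 cells.

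H1792 kept its leading cyclin under treatment. CCNB1 led at 67.1 ± 1.79 CPM per kb with DMSO and 66.9 ± 2.59 with AMG900 (SD, n = 3), above CCND1 at 60.6 ± 4.25 and 57.5 ± 0.42 and CCND3 at 57.1 ± 3.14 and 61.5 ± 1.05. CCNA2 fell from 14.8 ± 1.22 to 5.93 ± 0.12 CPM per kb, and with that it moved from a range that overlapped CCNF to one under it. The order depends on the length used: over the union of all exons CCND1 made up 62.9% to 69.6% of the D-type transcripts, whereas over the longest transcript it made up 44.2% ± 1.60 (SD, n = 4) in A549 with DMSO, 51.7% ± 1.25 with AMG900, and 51.5% ± 0.40 and 48.3% ± 0.25 in H1792 (SD, n = 3). The CCND1 share thus lay higher in every A549 AMG900 library (49.96% to 52.9%) than in any A549 DMSO library (42.6% to 46.4%), and lower in every H1792 AMG900 library (48.1% to 48.6%) than in any H1792 DMSO library (51.1% to 51.9%).

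The ratio of CCNA2 to CCNB1 per kb fell from 0.0927 ± 0.0202 to 0.0242 ± 0.00563 in A549 (SD, n = 4) and from 0.22 ± 0.0124 to 0.0887 ± 0.00419 in H1792 (SD, n = 3), and in both lines the treated libraries lay under all untreated ones. The ratio of CCNB1 to CCNB2 stood at 2.82 ± 0.20 and 3.37 ± 0.22 in A549 and at 2.28 ± 0.12 and 2.23 ± 0.07 in H1792.

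**Figure D4:**
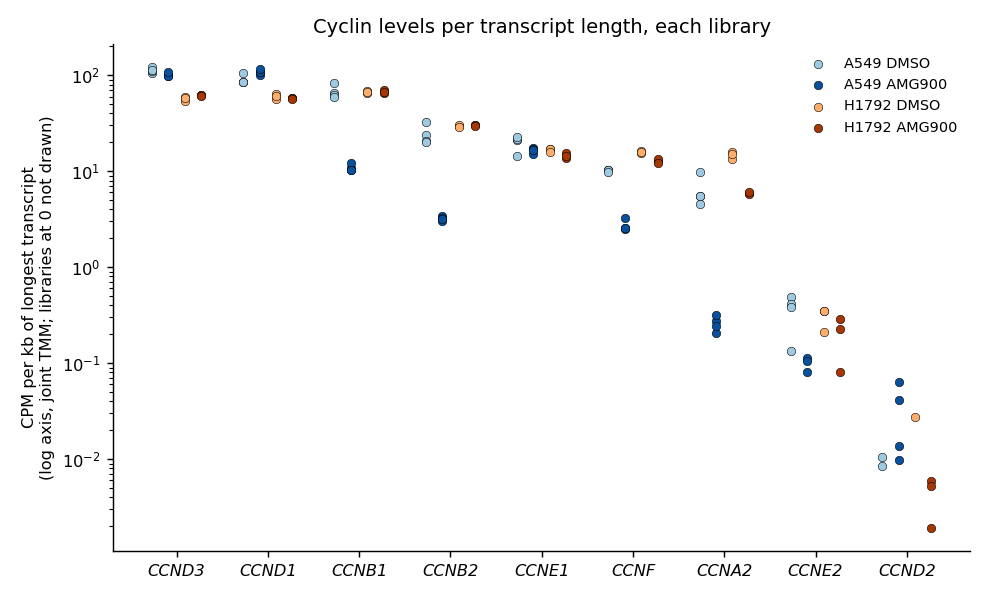
Cyclin levels in every library in CPM per kb of the longest transcript (y axis, log scale, joint TMM scaling), by gene on the x axis and by group in colour. Each point is a library and libraries at 0 are not drawn. CCND1 and CCND3 lie near 100 CPM per kb in A549 in both groups, while CCNA2 falls from 6.38 to 0.26 CPM per kb on average.

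Of the kinases that cyclins activate, CDK1 and CDK2 fell in both lines. CDK1, the partner of cyclins B and A, had a log2 fold change of -3.61 ± 0.30 in A549 (SE, edgeR FDR = 1.23e-07) and -0.57 ± 0.10 in H1792 (SE, edgeR FDR = 0.000604). CDK2, the partner of cyclins E and A, had -2.07 ± 0.10 in A549 (SE, edgeR FDR = 3.12e-10) and -0.85 ± 0.06 in H1792 (SE, edgeR FDR = 3.27e-06). Of the 4 partner kinases CDK1, CDK2, CDK4 and CDK6, all 4 passed the threshold as lower in A549, and 3 did so in H1792, beside 17.8% and 19.2% of all genes, with a median of -1.29 and -0.42. The drug's targets AURKA and AURKB, mitotic kinases themselves, had log2 fold changes of -2.49 and -3.21 in A549 (edgeR FDR = 5.76e-12 and 4.58e-12), 0.14 in H1792 for AURKA (edgeR FDR = 0.126) and 0.24 for AURKB (edgeR FDR = 0.00738).

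Inhibitors of the cyclin-CDK complexes went in both directions. CDKN1A, which encodes p21, rose by 1.73 ± 0.07 on the log2 scale in A549 (SE, edgeR FDR = 1.78e-11) and by 0.60 ± 0.06 in H1792 (SE, edgeR FDR = 1.19e-05), and the rise was smaller in H1792 (interaction -1.21 ± 0.10 SE, edgeR FDR = 4.05e-09). CDKN1C, which encodes p57, rose by 1.56 in A549 and 1.499 in H1792 (edgeR FDR = 0.000319 and 0.000376). CDKN2C, which encodes the CDK4 and CDK6 inhibitor p18, had log2 fold changes of -1.64 in A549 and -0.56 in H1792 (edgeR FDR = 8.62e-08 and 0.000628). In all, 2 of the 5 tested inhibitors were upregulated and 1 downregulated in A549, beside 17.3% and 17.8% of all genes. In H1792, 2 of 6 were upregulated and 2 downregulated, beside 16.7% and 19.2%, and CDKN1B (p27) fell by 0.35 on the log2 scale (edgeR FDR = 0.000928).

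Enzymes that set the phosphorylation of CDK1 and CDK2, with the CKS subunits, were downregulated for 7 of 10 in A549 and upregulated for 0, beside 17.8% and 17.3% of all genes. The largest decreases there were in PKMYT1, an inhibitory kinase of CDK1 (-3.79, edgeR FDR = 6.93e-12), and CDC25C, a phosphatase that activates it (-3.12, edgeR FDR = 3.6e-09). In H1792, 5 of 10 were downregulated and 1 upregulated, beside 19.2% and 16.7%. WEE1, an inhibitory kinase, fell most (-1.18, edgeR FDR = 2.51e-05), and CKS2 rose (0.57, edgeR FDR = 0.000874).

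Of 12 genes of cyclin ubiquitination, 6 were downregulated and 0 upregulated in A549, beside 17.8% and 17.3% of all genes. In H1792, 4 were downregulated and 3 upregulated, beside 19.2% and 16.7%. FBXO5, the APC/C inhibitor that shields cyclins A and B in interphase, had log2 fold changes of -3.14 in A549 and -1.09 in H1792 (edgeR FDR = 8.87e-06 and 0.000495). The A549 AMG900 libraries held only 4 to 9 FBXO5 counts each. CDC20, which directs the APC/C to cyclin B in mitosis, fell by 3.11 on the log2 scale in A549 (edgeR FDR = 1.28e-12). The APC/C ubiquitin-conjugating enzymes UBE2S and UBE2C rose in H1792 (0.45 and 0.37, edgeR FDR = 0.000263 and 0.000139).

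Of 23 factors known to control the transcription of cyclin genes, 15 were downregulated and 1 upregulated in A549, beside 17.8% and 17.3% of all genes, and 13 and 1 in H1792, beside 19.2% and 16.7%. They had a median of -1.005 in A549 and -0.38 in H1792 on the log2 scale, where all genes stood at -0.01 and 0.01. In A549 the largest decreases were in E2F8, a repressor of E2F targets (-4.70, edgeR FDR = 1.58e-05), and E2F2, an activator (-4.56, edgeR FDR = 2.4e-09), and LIN37, a DREAM subunit, rose (0.69, edgeR FDR = 0.00219). The A549 AMG900 libraries held 1 to 8 E2F8 counts and 2 to 11 E2F2 counts each, so counting error weighs on the size of these 2 decreases. In H1792, RB1 (-1.57, edgeR FDR = 0.000246) and LIN9 (-0.72, edgeR FDR = 0.0016) fell most and NFYC, an NF-Y subunit, rose (0.44, edgeR FDR = 0.00145).

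**Figure D5:**
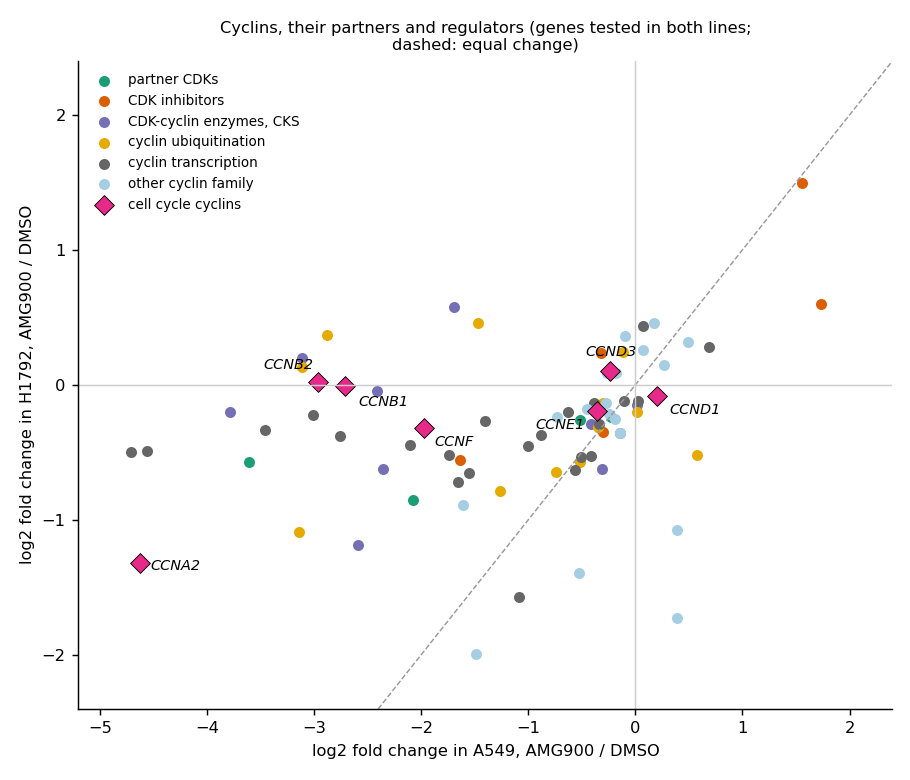
Log2 fold change of AMG900 against DMSO in A549 (x axis) and H1792 (y axis) for the cyclins (diamonds) and the genes of each list (coloured points) that were tested in both lines, with a dashed line at equal change. CCNB1 and CCNB2 lie at -2.71 and -2.96 in A549 and near 0 in H1792, and CCNA2 at -4.63 and -1.32.

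Of the other cyclin family members, many of which act in transcription, 2 of 18 tested were downregulated in A549 and 1 upregulated, beside 17.8% and 17.3% of all genes. CCNT1, the cyclin of the elongation kinase P-TEFb (-1.61, edgeR FDR = 0.000181), and CCNC, the cyclin of the Mediator kinase (-1.49, edgeR FDR = 0.00462), fell, and CCNK, the partner of CDK12, rose (0.50, edgeR FDR = 0.000171). In H1792, 7 of 21 were downregulated and 4 upregulated, beside 19.2% and 16.7% of all genes, with CCNC lowest (-1.99, edgeR FDR = 1.17e-06). CCNA1, the A-type cyclin of germ cells, was not detected in any A549 DMSO library and had at most 4 counts with AMG900. In H1792 it averaged 8.25 CPM with DMSO (396 to 469 counts) and 9.74 CPM with AMG900 (501 to 725 counts).

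Likeness to each cyclin was measured by Pearson's r of log2 CPM over the 14 libraries, among 10849 genes with a mean of at least 100 counts. With CCNB1 it was highest for PRC1 (0.995), a cytokinesis factor, and TPX2 (0.994), the activator of aurora A. With CCNB2 it was highest for BIRC5 (0.993), a partner of aurora B, and PKMYT1 (0.992). CCNA2 was most like UHRF1 (0.99), which maintains DNA methylation at replication, and H2AFZ (0.989), a histone variant gene. CCNF was most like LMNB2 (0.996), a nuclear lamin gene, and RFC2 (0.994), a replication clamp loader subunit. CCND1 followed OBSL1 and KIFC3 (0.993 each), CCND3 followed SMAD6 (0.996) and TUBB3 (0.995), CCNE1 followed FUBP3 (0.944) and POFUT1 (0.936), and CCNE2 followed SAR1A (0.904) and TSPYL1 (0.902). The points share 2 lines of unequal depth and each group of libraries moves together, so these values describe the 4 groups more than single libraries.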

How the data were processed

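Total RNA of A549 (4 DMSO, 4 AMG900) and H1792 (3 DMSO, 3 AMG900) cells was extracted with RNeasy columns and read on a NextSeq instrument. The authors deposited raw counts per gene symbol in 1 table per line. Per the submitters' processing notes, STAR and HTSeq were used with hg19/GRCh37, and their versions, the annotation and the strand setting are not given in the sources used here. The 28 entries of the H1792 table with dates in place of symbols were left out. The treatment protocol names 3 replicates per treatment, while the labels list 4 for A549, and all were used. Libraries of a group differed by more than counting error (chi-square per gene 3.31 to 48.3) and each was counted as 1 sample.

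The counts were analysed in R 4.3.3 with edgeR 4.0.16 (filterByExpr, TMM, robust quasi-likelihood test, Benjamini-Hochberg adjustment over all genes tested, FDR 0.01), within each line as in the study and in a joint fit for the interaction and for untreated cells. The biological coefficient of variation was 12.8% in A549, 9.6% in H1792 and 11.3% jointly, which limits the precision of abundant genes, whereas counting error limits genes with few counts. CPM beside AMG900 effects were scaled within a line, and those compared between lines or per length jointly. Log2 CPM used a prior count of 2. Cyclins with too few counts were compared by a two-sided exact permutation test on CPM. Positions, lengths and GC content came from GENCODE on GRCh37, in which 22367 of 26760 symbols matched as current and 1250 as older names, and promoters from RefSeq on GRCh38.p14. A comparison of the cyclin proteins was planned and not run.

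Alternatives were DESeq2 1.42.0, its size factors, total counts, no filter, at least 10 counts in every library, an FDR of 0.05, a GC correction (natural spline, 5 degrees of freedom), a replicate block, each library left out, and the exon union as length. The edgeR fits within each line and the joint fit for the interaction were tried on simulated counts, and the other steps were not. The genes named are the 9 cyclins, per list and line up to 2 called genes with the largest rise and 2 with the largest fall, the 2 genes most like each cyclin (mean of at least 100 counts), AURKA, AURKB and the markers, of which 1 is not reported here, and CCNA1 as a called gene between untreated lines. The cyclins and lists were chosen with earlier results of these data known.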

Additional observations from a re-analysis of the deposited data

Results flagged for a closer look

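In 18 groups of 4 A549 libraries, 1 per cyclin and treatment, the highest or lowest library was compared with the others by Dixon's criterion, and 4 groups stood out. Chance gives about 1 in 20 for a single group. The 18 groups share the same libraries and are not independent, so their number cannot be set against that rate. A549 DMSO replicate 1 accounted for 3 of them: it was the highest of its group for CCNA2 (28.9 CPM) and for CCND1 (472.3 CPM) and the lowest for CCNE1 (29.84 CPM). A549 AMG900 replicate 3 was the highest of its group for CCNF (13.54 CPM). The groups of 3 in H1792 were not examined this way.

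The AMG900 effect differed between the lines by the test of the interaction for 4 cyclins, with H1792 minus A549 differences in log2 fold change of 3.207 for CCNA2, 2.898 for CCNB2, 2.62 for CCNB1 and 1.576 for CCNF. Medium, count table and sequencing depth differed along with the line.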

How the results depend on the processing

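CCNA2, CCNB1, CCNB2 and CCNF kept their direction and call in A549 and in the interaction under every alternative in which they were tested, as did CCNA2 and CCNF in H1792. Over these alternatives the A549 log2 fold change ran from -4.76 to -4.29 for CCNA2 and from -2.78 to -2.38 for CCNB1. For CCNB2 it ran from -3.06 to -2.76 and for CCNF from -2.29 to -1.93. In H1792 it ran from -1.39 to -1.08 for CCNA2 and from -0.59 to -0.28 for CCNF. Requiring 10 counts in every library left 3 downregulated cyclins in A549, since CCNA2 was then not tested and CCND3 (-0.20, edgeR FDR = 0.02) lost its call. With the GC correction 1 cyclin was upregulated in H1792, CCNB1, whose log2 fold change turned from -0.01 to 0.2255. At an FDR of 0.05, 1 cyclin, CCND1, had a lower effect in H1792. For untreated cells the alternatives gave 2 to 3 cyclins higher and 2 to 3 lower in H1792. Leaving out 1 library gave 4 to 7 downregulated and 0 to 1 upregulated cyclins in A549 and 0 to 1 cyclins with a lower effect in H1792, and the upper values came without A549 DMSO replicate 1. Leaving out that library also put 2 cyclins at another rank in A549 with DMSO, where the other libraries moved 0. With the exon union as length, 3 cyclins changed rank in A549 with DMSO, 5 in H1792 with DMSO and 3 in H1792 with AMG900, the CCND1 share was 62.9%, 69.6%, 69.4% and 66.7% and the ratio of CCNB1 to CCNB2 was 2.59, 3.09, 2.09 and 2.04 in A549 DMSO, A549 AMG900, H1792 DMSO and H1792 AMG900. The cause of the other moves was not tested. Replicate numbers did not pair the libraries, with correlations of same-numbered deviations between -0.0391 and 0.0126 in A549 and between -0.0604 and 0.0425 in H1792. With the number as a replicate block, 4 cyclins were downregulated in A549, as CCND3 lost its call (-0.23, edgeR FDR = 0.0211), and 2 in H1792. Few counts limit CCNE2 in A549 and CCND2 in both lines.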
